A study of Mus musculus with 15 samples.

Results

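The comparison described here is that of tetraploid (4n-whole) with diploid (2n-whole) hepatocytes. It rests on 8 of the 15 libraries of the series, 4 of each population, and the pair of libraries with the same number was taken from the same mouse. Members were all genes that passed a filter on low counts, 17488 of the 55984 genes listed. All groups came from wild-type adult male C57BL/6JJcl mice with no transgene, and no treatment distinguished them. Livers were perfused with collagenase, and live hepatocytes were sorted by the area of the Hoechst signal, a measure of DNA content, into 2n-whole and 4n-whole. The latter population mixes mononucleated cells with 1 tetraploid nucleus and binucleated cells with diploid nuclei. The 4n-top and 4n-bottom populations, used below only for reference, were parted further by the height of that signal, and 4n-top had no library of mouse 1. After sorting, 2n cells were spun down harder and longer than 4n cells, so that this handling and ploidy cannot be told apart.

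Hepatocytes become polyploid after birth when cells replicate their DNA without dividing, or divide their nuclei without dividing the cell. Metabolic tasks are arranged along the axis from the portal to the central vein of the liver lobule, known as zonation. Periportal cells are known for urea synthesis and gluconeogenesis, and pericentral cells, under Wnt signals from the central vein, for glutamine synthesis, bile acid synthesis and drug oxidation by cytochrome P450 enzymes. Diploid and polyploid hepatocytes are not evenly spread along this axis. Bulk RNA does not part ploidy from position, and in it fewer cells of a type and less RNA per cell cannot be told apart.

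Total counts ranged from 31814400 to 42096421 in 2n-whole and from 22049498 to 38110566 in 4n-whole, and 3 counts in a library stood for between 0.0713 and 0.136 CPM, the unit that divides each count by the total of its library, a limit that covers counting error only. Of the genes with 1 to 10 counts in a library, 74.2 to 81.4% had an even count. If both reads of a pair were counted, which the sources used here leave unsaid, 3 counts stand for fewer fragments, and genes near this limit are less certain. The 12 markers of hepatocyte identity had a median log2 fold change of 0.06. Of them 1, Serpina1c, was called, as lower in 4n-whole (8.33%, against 1.73% of all genes). Alb, which encodes albumin, ranged from 60622 to 69618 CPM in 2n-whole and from 49605 to 68436 CPM in 4n-whole (log2 fold change -0.23, adjusted p = 0.057). The share of counts on mitochondrial genes was 20.5, 23.2, 26.2 and 26% in 2n-whole mice 1 to 4 and 18.5, 8.84, 15.7 and 11.0% in 4n-whole. It was lower in 4n-whole in each mouse and lowest in the 4n-whole libraries of mice 2 and 4. CPM values of single genes are given after TMM scaling, which estimates the library scale from the bulk of the genes.

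A gene was called differentially expressed (DEG) when its adjusted p fell below 0.05 and its log2 fold change exceeded 0.5 in size, in edgeR's quasi-likelihood test with the mouse in the model. Of the tested genes, 3.47% were called, 305 (1.74%) with more expression in 4n-whole and 302 (1.73%) with more in 2n-whole. An adjusted p below 0.05 at any fold was reached by 957 genes (5.47%) and an unadjusted one by 3570 (20.4%). The median log2 fold change was -0.007 over all genes, 0.76 over the DEGs higher in 4n-whole and -0.80 over those higher in 2n-whole. A difference of over 2-fold was found for 100 and 116 of them. The DEGs higher in 4n-whole kept this direction in all 4 mice for 266 of 305, where 11.7% of all tested genes did so, and for 118 every 4n-whole library lay above every 2n-whole library (2.71% of all genes). Of the DEGs higher in 2n-whole, 281 of 302 kept the direction in all mice (12.6% of all genes) and 153 did not overlap (3.09%). These shares come from the same values as the calls and are a description. The counts depended on how the mouse was treated. Without the mouse as a block 40 genes were called, 19 of them higher in 4n-whole, and without mouse 4 the count was 244, without mouse 2 365 and without mouse 3 1025. Of the 111 called genes named here, 22 kept the call without the block. Among them were Cyp1a2, Gulo, Tbx3, Rtn4, Ly6e, Mup20 and Spp1, while Cyp2e1, Glul and the mitochondrial genes lost it.

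**Figure D1:**
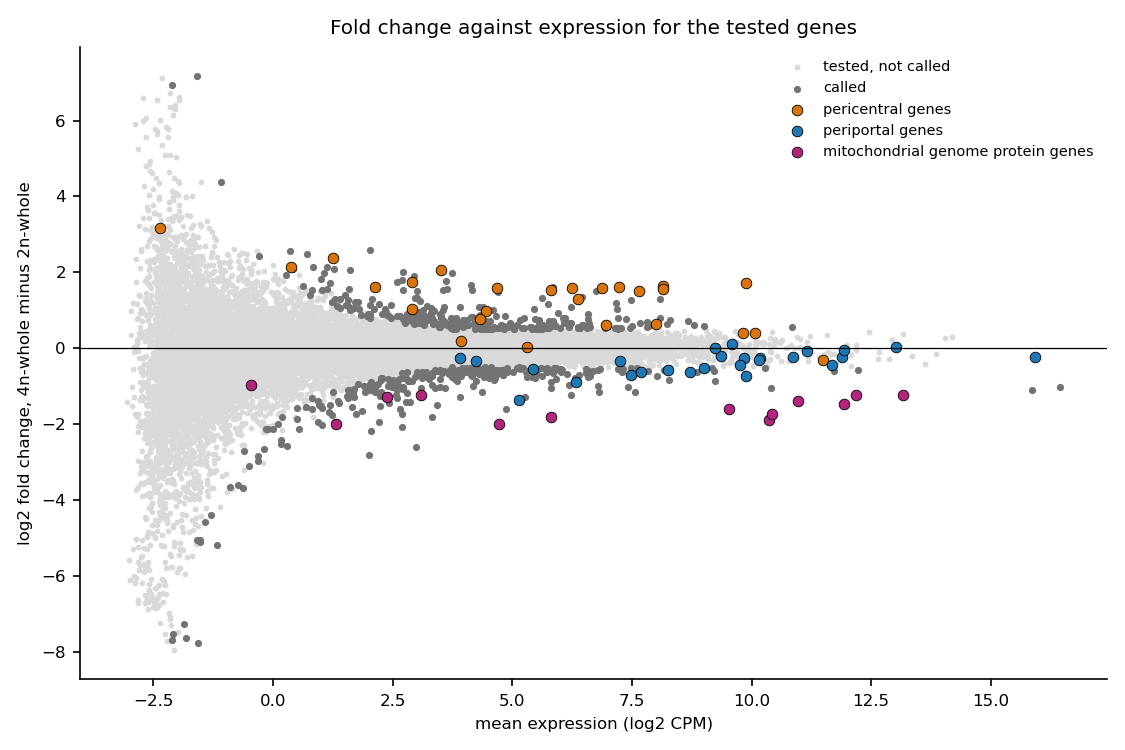
Log2 fold change (4n-whole minus 2n-whole) against mean expression (log2 CPM) for the 17488 tested genes, each a point, with called genes in dark grey and 3 gene lists in colour. Pericentral genes lie above 0 with 1 exception of 26, 23 of 26 periportal genes lie below 0, and all 13 protein genes of the mitochondrial genome lie between -2.0 and -0.98.

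Pericentral genes made up the list with most calls in the direction of 4n-whole. Of 26 members, all tested, 20 rose in 4n-whole and none fell, against 1.74% of all genes, and 21 were higher in 4n-whole in every mouse. Their median log2 fold change was 1.55 (-0.007 over all genes). Between 17 and 22 were called when a mouse was left out, but 5 without the mouse in the model.

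Cyp2e1 encodes the P450 that oxidizes ethanol (chromosome 7 of GRCm39, bases 140343652 to 140355167). The gene was expressed at 264, 292, 513 and 429 CPM in the 2n-whole libraries of mice 1 to 4 and 1523, 432, 1822 and 1602 CPM in the 4n-whole libraries of the same mice. It was higher in 4n-whole in each mouse, but the 4n-whole library of mouse 2 lay within the range of 2n-whole (log2 fold change 1.71, standard error 0.19, adjusted p = 1.3e-06). Cyp1a2, which metabolizes caffeine, was expressed at 124, 96.2, 123 and 144 CPM in 2n-whole and at 520, 185, 388 and 518 CPM in 4n-whole. Every 4n-whole library was above every 2n-whole library (log2 fold change 1.65). Cyp2a5, the coumarin hydroxylase, was expressed at 17.0, 47.2, 69.7 and 71.9 CPM in 2n-whole and at 70.4, 94.1, 217 and 232 CPM in 4n-whole (log2 fold change 1.60, adjusted p = 7.1e-08). Mouse 1 was lowest in both populations, so that the groups overlapped while each mouse gave a rise. Reads of Cyp2a5 can be shared with close paralogs.

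The promoters of these 3 genes are shown because each holds the letters TATAAA in the direction of transcription, starting 29 bases before the annotated start in Cyp1a2 and Cyp2a5 and 31 bases before it in Cyp2e1. The sequences are those of RefSeq on GRCm38.p6, from 250 bases before to 50 bases after the start, read along the gene, with TATAAA in capitals. They are chr9:57683606-57683905 on the minus strand, chr7:26835089-26835388 on the plus strand and chr7:140763569-140763868 on the plus strand.
Cyp1a2: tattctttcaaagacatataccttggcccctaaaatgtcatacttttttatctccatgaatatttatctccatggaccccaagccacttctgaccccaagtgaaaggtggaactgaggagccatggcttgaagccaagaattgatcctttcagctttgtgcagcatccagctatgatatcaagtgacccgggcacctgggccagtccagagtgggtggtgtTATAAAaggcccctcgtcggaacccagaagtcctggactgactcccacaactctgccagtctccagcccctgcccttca
Cyp2a5: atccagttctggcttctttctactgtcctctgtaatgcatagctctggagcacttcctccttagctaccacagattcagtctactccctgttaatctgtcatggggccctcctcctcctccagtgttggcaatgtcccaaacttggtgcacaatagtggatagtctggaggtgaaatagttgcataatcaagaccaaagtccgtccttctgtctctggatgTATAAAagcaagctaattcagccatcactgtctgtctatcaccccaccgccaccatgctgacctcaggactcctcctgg
Cyp2e1: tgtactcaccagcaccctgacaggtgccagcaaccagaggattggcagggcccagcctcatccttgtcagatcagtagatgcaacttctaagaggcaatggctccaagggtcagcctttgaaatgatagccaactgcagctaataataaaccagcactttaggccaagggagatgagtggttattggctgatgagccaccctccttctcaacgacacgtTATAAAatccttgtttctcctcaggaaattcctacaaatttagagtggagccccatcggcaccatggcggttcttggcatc
The letters TATAAA, searched on both strands, were found in 18 of 208 promoters of DEGs higher in 4n-whole (8.65%), in 30 of 213 of those higher in 2n-whole (14.1%) and in 859 of 10916 promoters of tested genes (7.87%). The match is a description of these letters only.

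Glul encodes glutamine synthetase, the classical enzyme of the cells next to the central vein, and its locus, on chromosome 1 from 153775690 to 153785469, is overlapped by a further annotated gene of that strand. It was expressed at 29.1, 24.0, 43.0 and 66.8 CPM in 2n-whole and at 111, 44.7, 82.1 and 176 CPM in 4n-whole (log2 fold change 1.30, standard error 0.15, adjusted p = 1.3e-06). The levels differed widely between mice, and each mouse gave a rise. Oat, the ornithine aminotransferase of the same cells, was expressed at 45.8, 60.8, 67.4 and 83.9 CPM in 2n-whole and at 237, 88.9, 190 and 326 CPM in 4n-whole, with no overlap (log2 fold change 1.61). Gulo, which encodes the last enzyme of vitamin C synthesis, was expressed at 27.6, 28.9, 33.7 and 43.7 CPM in 2n-whole and at 121, 47.4, 105 and 154 CPM in 4n-whole (log2 fold change 1.57, standard error 0.16, adjusted p = 2.4e-07). For Cyp2e1, Cyp1a2, Glul, Oat and Gulo alike the smallest rise was that of mouse 2.

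Of 10 tested Wnt target and feedback genes, 5 were called as higher in 4n-whole, against 1.74% of all genes, and 0 as lower. All 10 had a positive log2 fold change (median 0.82, against -0.007 over all genes). Tbx3, a transcription factor gene, was expressed at 1.87, 3.17, 5.22 and 4.94 CPM in 2n-whole and at 17.8, 8.30, 17.2 and 19.5 CPM in 4n-whole (log2 fold change 2.07, standard error 0.21, adjusted p = 4.5e-07). Axin2, a negative feedback gene of the pathway, was expressed at 1.21 to 2.64 CPM in 2n-whole and at 3.41 to 9.07 CPM in 4n-whole (log2 fold change 1.62, adjusted p = 0.0023). Rnf43, whose ubiquitin ligase removes Wnt receptors, was expressed at 11.1 to 17.2 CPM in 2n-whole and at 20.3 to 27.3 CPM in 4n-whole (log2 fold change 0.77). The groups did not overlap for any of the 3 genes. Without the mouse in the model 1 member of this list was called.

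**Figure D2:**
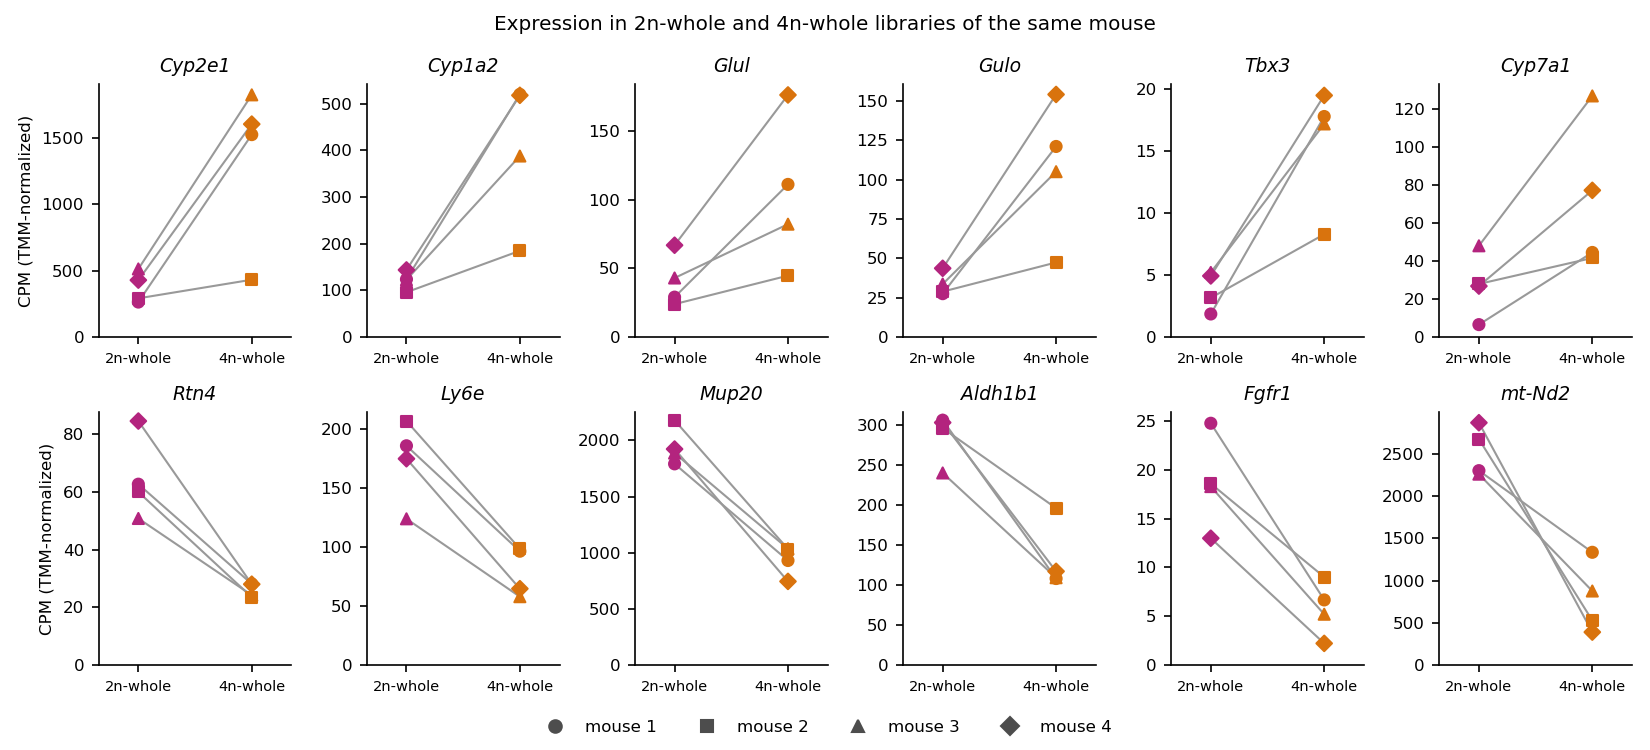
Expression (CPM after TMM scaling, axes from 0) of 12 genes in the 2n-whole and 4n-whole libraries, with a grey line joining the libraries of each mouse and a symbol for each mouse. The 6 genes of the upper row rose in each mouse, with a flatter line in mouse 2 for Cyp2e1, Cyp1a2 and Gulo, and the 6 genes of the lower row fell in each mouse.

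Among P450 enzymes of families 1 to 4, 13 of 58 tested members rose in 4n-whole (22.4%, against 1.74% of all genes) and 5 fell (8.62%, against 1.73%), with a median log2 fold change of 0.16. Without the mouse in the model these counts were 2 and 0. Receptor genes known for control of P450 genes rose as well, and their part in the P450 counts was not tested. Nr1i3, which encodes the drug-sensing receptor CAR, was expressed at 2.83, 5.34, 17.3 and 10.7 CPM in 2n-whole and at 12.6, 13.6, 37.2 and 31.9 CPM in 4n-whole (log2 fold change 1.53, standard error 0.16, adjusted p = 6.7e-07). Its level differed more between mice than between populations, and it rose in each mouse. Ahr, the dioxin receptor gene, was expressed at 7.15 to 22.0 CPM in 2n-whole and at 18.2 to 37.9 CPM in 4n-whole (log2 fold change 0.98, adjusted p = 0.00030). Nr1i3 and Tbx3 were the 2 called members of 24 hepatocyte transcription factors (8.33%, against 1.74% of all genes), whose median was 0.07. Lower in 4n-whole was Cyp2f2, a periportal P450, at 1383, 1146, 1026 and 1259 CPM in 2n-whole and 939, 645, 761 and 581 CPM in 4n-whole (log2 fold change -0.73, adjusted p = 7.7e-05), with no overlap. Cyp4a12b (log2 fold change -0.71), which has a close paralog, and Cyp4v3 (-0.51) also fell.

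Of 24 glutathione transferases Gstm2 rose (log2 fold change 1.10, in 3 of 4 mice), of 18 UDP-glucuronosyltransferases Ugt1a2 rose and Ugt2b38 fell, and of 8 sulfotransferases none was called. These are 4.17% of the first list, and 5.56% of the second in each direction, against 1.74 and 1.73% of all genes. Ugt2b38 was expressed at 91.2, 42.8, 35.9 and 34.0 CPM in 2n-whole and at 7.33 to 34.1 CPM in 4n-whole, a fall in each mouse. Sult1a1 passed the adjusted p but not the fold limit (log2 fold change -0.48, adjusted p = 0.0014).

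In bile acid synthesis and conjugation, 4 of 20 members rose and 1 fell (20.0 and 5.0%, against 1.74 and 1.73% of all genes). Cyp7a1, the rate-limiting enzyme of the pathway, was expressed at 6.61, 28, 48.1 and 26.9 CPM in 2n-whole and at 44.6, 41.7, 127 and 77.3 CPM in 4n-whole (log2 fold change 1.54, standard error 0.19, adjusted p = 4.8e-06). Cyp8b1, the sterol 12-alpha-hydroxylase, was expressed at 154, 155, 221 and 177 CPM in 2n-whole and at 273, 233, 415 and 331 CPM in 4n-whole (log2 fold change 0.81). Cyp27a1, which starts the alternative route, rose by a log2 fold change of 0.65 with no overlap, whereas Cyp39a1, an oxysterol hydroxylase, fell (log2 fold change -0.76). Csad, the decarboxylase of taurine synthesis, was the 1 call of 20 genes of taurine and cysteine metabolism (5.0%, against 1.74% of all genes). It was expressed at 35.7, 96.1, 99.1 and 91.1 CPM in 2n-whole and at 89.5, 209, 202 and 225 CPM in 4n-whole. The library of mouse 1 was lowest in both populations, and the rise in each mouse was over 2-fold. Among bile acid and drug transporters, Abcc6 rose (log2 fold change 0.66) and Abcb1a fell (-0.83).

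Of 20 genes of proline, ornithine and glutamate metabolism 3 rose (15.0%, against 1.74% of all genes) and none fell. Those that rose were Glul, Oat and the hydroxyproline dehydrogenase gene Prodh2 (log2 fold change 0.53, adjusted p = 0.0053). Of the 20 tested genes linked to growth hormone, 5 rose and 1 fell, against 1.74 and 1.73% of all genes. The member that fell was Mup20, described below. Elovl3, a fatty acid elongase gene with male-biased expression, was expressed at 100, 148, 83.1 and 56.3 CPM in 2n-whole and at 292, 216, 219 and 181 CPM in 4n-whole, with no overlap (log2 fold change 1.27). Hsd3b5, a male-biased steroid dehydrogenase gene, was expressed at 63.1, 41.0, 11.7 and 12.5 CPM in 2n-whole and at 138, 56.6, 34.3 and 38.4 CPM in 4n-whole (log2 fold change 1.17). Its level varied more between mice than between populations, while each mouse gave a rise. Igfbp2, a binding protein of insulin-like growth factors, was expressed at 194 to 261 CPM in 2n-whole and at 290 to 406 CPM in 4n-whole (log2 fold change 0.73).

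Further genes with the smallest p in this direction stood in none of these lists. Ang, which encodes the ribonuclease angiogenin, was expressed at 31.5, 21.3, 23.1 and 26.5 CPM in 2n-whole and at 76.5, 37.1, 62.9 and 91.5 CPM in 4n-whole (log2 fold change 1.32). Npr2, the receptor gene for C-type natriuretic peptide, was expressed at 5.35, 4.01, 7.20 and 3.74 CPM in 2n-whole and at 16.7, 12.9, 16.2 and 23.9 CPM in 4n-whole (log2 fold change 1.78). Susd4, a complement regulator gene, was expressed at 1.18, 0.543, 1.98 and 0.747 CPM in 2n-whole and at 7.54, 3.01, 8.74 and 7.27 CPM in 4n-whole (log2 fold change 2.59, standard error 0.27). The groups did not overlap for these 3 genes. Among the DEGs with a mean of at least 10 CPM, Cyp2e1, Npr2 and the transcription factor gene Pitx3 had the largest log2 fold changes. Pitx3 was expressed at 2.30 to 7.65 CPM in 2n-whole and at 12.9 to 38.6 CPM in 4n-whole (log2 fold change 1.98). The highest value was that of mouse 2. On chromosome 19 the annotated Pitx3 locus overlaps that of Elovl3 on the opposite strand, from 46123719 to 46124133. The strand setting of the counting is not given, so reads of Elovl3 may be among the Pitx3 counts, which was not tested.

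Of 32 genes of fatty acid oxidation and PPAR alpha targets, 4 rose (12.5%, against 1.74% of all genes) and none fell. Acaa1b, a peroxisomal thiolase gene, rose from 337 to 500 CPM in 2n-whole to 423 to 819 CPM in 4n-whole (log2 fold change 0.60), and its paralog Acaa1a by 0.57. Acot1, an acyl-CoA thioesterase gene with close paralogs, rose by a log2 fold change of 0.87. In lipid and glucose synthesis Mlxipl, the gene of the glucose-sensing factor ChREBP (log2 fold change 0.62), and Mvk, the mevalonate kinase gene (0.63), rose, while the elongase gene Elovl6 (-0.52) and the glucose transporter gene Slc2a2 (-0.65) fell. Pdk4, which restrains pyruvate oxidation, was the 1 call of 25 citric acid cycle genes (log2 fold change 0.79), which is 4.0%, against 1.74% of all genes.

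**Figure D3:**
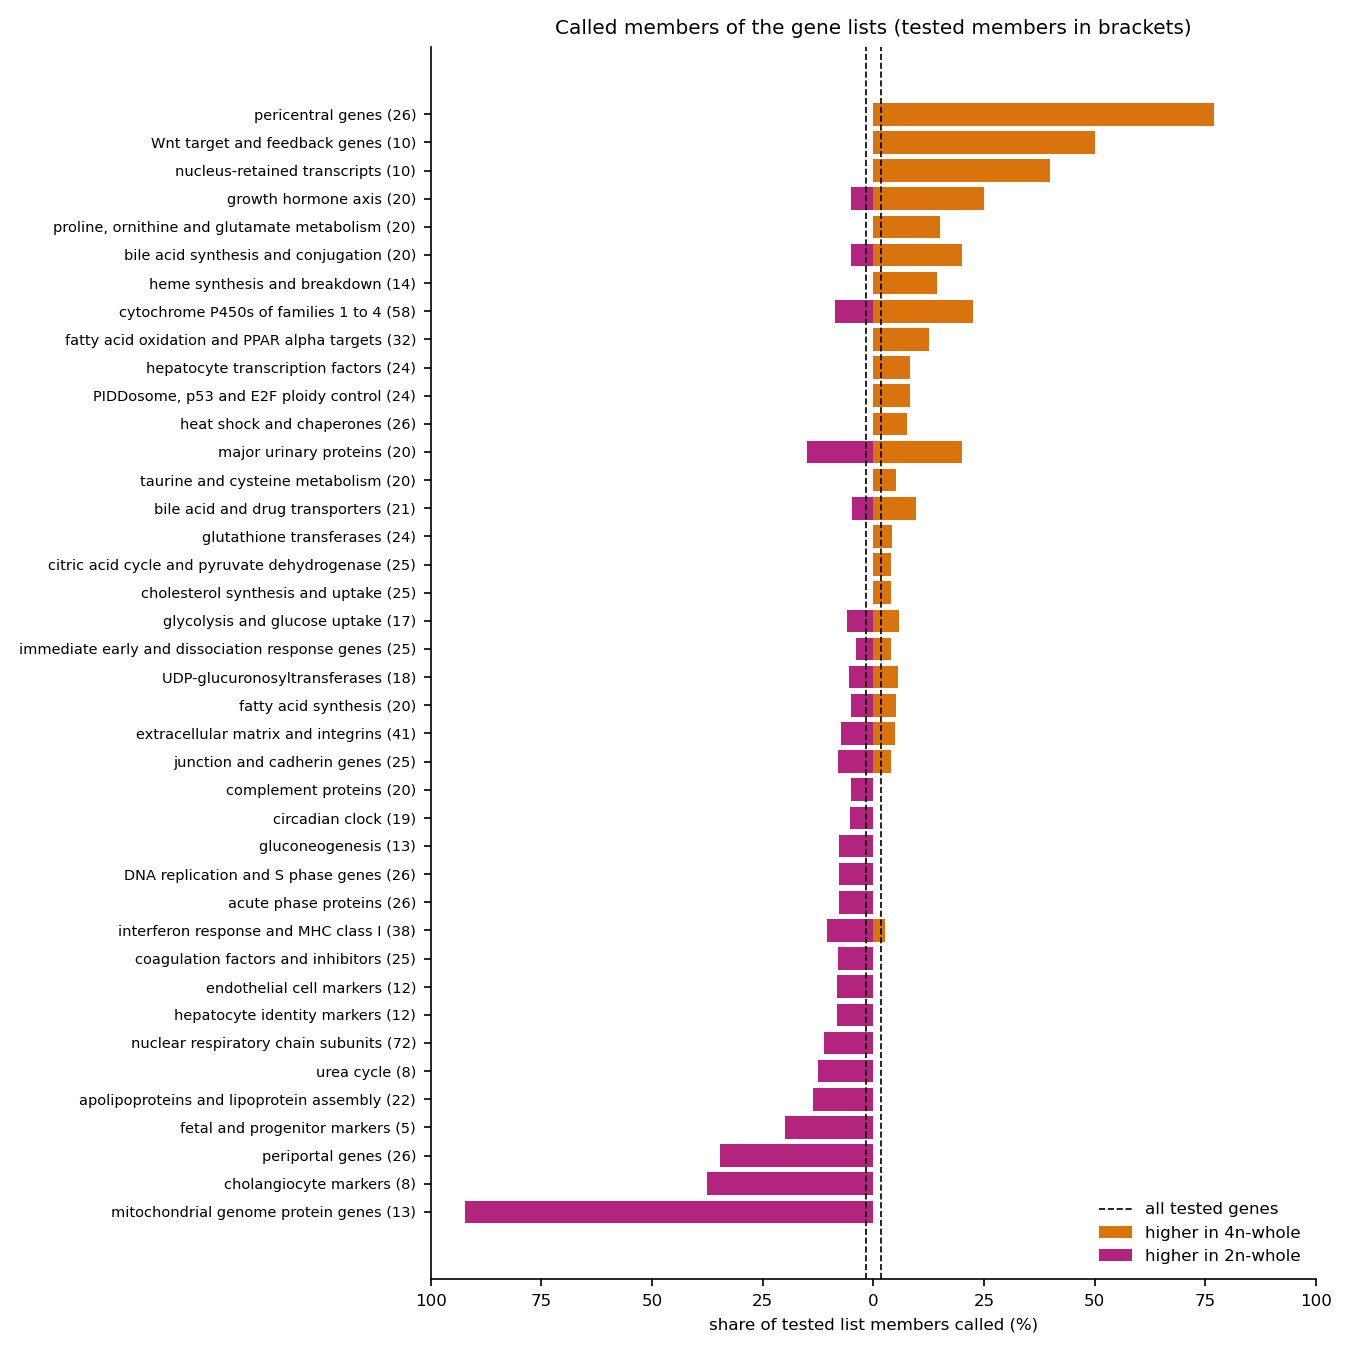
Share of the tested members of each gene list that were called (%), to the right when higher in 4n-whole and to the left when higher in 2n-whole, for lists with at least 5 tested members and 1 call, with dashed lines at the share over all tested genes. Pericentral genes reach 76.9% on the right, and mitochondrial genome protein genes reach 92.3% and periportal genes 34.6% on the left.

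Periportal genes were lower in 4n-whole, by smaller steps than the pericentral genes rose. Of 26 members 9 fell, against 1.73% of all genes, 0 rose, and 17 were lower in 4n-whole in all 4 mice. The median log2 fold change was -0.31. Between 6 and 10 members were called when a mouse was left out, and 2 without the mouse in the model. Apoa4, an apolipoprotein gene, was expressed at 50.4, 50.2, 42.0 and 83.8 CPM in 2n-whole and at 19.8, 18.7, 20.6 and 25.8 CPM in 4n-whole (log2 fold change -1.37, standard error 0.12). Ctsc, which encodes cathepsin C, was expressed at 86.8 to 155 CPM in 2n-whole and at 49.7 to 65.4 CPM in 4n-whole (log2 fold change -0.88). Hsd17b6, a hydroxysteroid dehydrogenase gene, was expressed at 193 to 284 CPM in 2n-whole and at 121 to 184 CPM in 4n-whole (log2 fold change -0.71). The groups of all 3 genes lay apart. Cdh1, the E-cadherin gene, was expressed at 343, 261, 153 and 281 CPM in 2n-whole and at 223, 182, 112 and 149 CPM in 4n-whole, a fall in each mouse (log2 fold change -0.63).

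The urea cycle did not follow as a whole. Of its 8 genes 1 was called, Otc, the ornithine transcarbamylase gene (12.5%, against 1.73% of all genes). Otc was expressed at 429, 371, 303 and 380 CPM in 2n-whole and at 368, 164, 265 and 218 CPM in 4n-whole (log2 fold change -0.58, adjusted p = 0.0051). Ass1, the argininosuccinate synthase gene, stood at a log2 fold change of -0.24 (adjusted p = 0.055) and Asl, the next enzyme, stood at 0.10 (adjusted p = 0.57). Of 13 gluconeogenesis genes 1 fell (7.69%, against 1.73% of all genes), the coactivator gene Ppargc1a (log2 fold change -0.59). Of 32 genes of amino acid breakdown none was called. Hamp, the hepcidin gene, stood at a log2 fold change of 0.29 (adjusted p = 0.21). Of the 4 tested genes of the middle of the lobule, Cyp8b1 and Igfbp2 rose and Mup3 fell.

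All 13 protein genes of the mitochondrial genome had lower values in 4n-whole in each of the 4 mice. Of them 12 were called (92.3%, against 1.73% of all genes). Their median log2 fold change was -1.46. mt-Nd2, a complex I subunit gene, was expressed at 2303, 2676, 2261 and 2871 CPM in 2n-whole and at 1335, 527, 876 and 389 CPM in 4n-whole, with no overlap (log2 fold change -1.89, standard error 0.24, adjusted p = 6.8e-06). mt-Co1, the gene of the catalytic subunit of complex IV, was expressed at 12037, 16287, 16109 and 15271 CPM in 2n-whole and at 9853, 4177, 8128 and 4910 CPM in 4n-whole (log2 fold change -1.24). The 4n-whole libraries of mice 2 and 4 were the lowest for both genes and that of mouse 1 the highest. The mitochondrial ribosomal RNAs mt-Rnr1 and mt-Rnr2 fell as well (log2 fold changes -1.10 and -1.03), and together they held 17.3 to 22.5% of the counts in 2n-whole and 7.64 to 16.0% in 4n-whole. Of 16 tested genes on the mitochondrial chromosome 15 were called, all lower in 4n-whole. Without the mouse in the model none of the 13 protein genes was called.

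Of 72 subunits of the respiratory chain encoded in the nucleus, 8 fell (11.1%, against 1.73% of all genes) and 0 rose. The median was -0.07. Uqcrb of complex III was expressed at 136, 108, 63.7 and 114 CPM in 2n-whole and at 98.6, 33.6, 65.7 and 47.3 CPM in 4n-whole (log2 fold change -0.80, lower in 3 of 4 mice). Cox7b (log2 fold change -0.72) and Cox6b1 (-0.51) of complex IV were lowest in the same 2 libraries, those of mice 2 and 4. Without mouse 4 none of the 72 was called and without mouse 2 there were 2. The mitochondrial share of these libraries moved with the result, and its part in it was not tested.

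**Figure D4:**
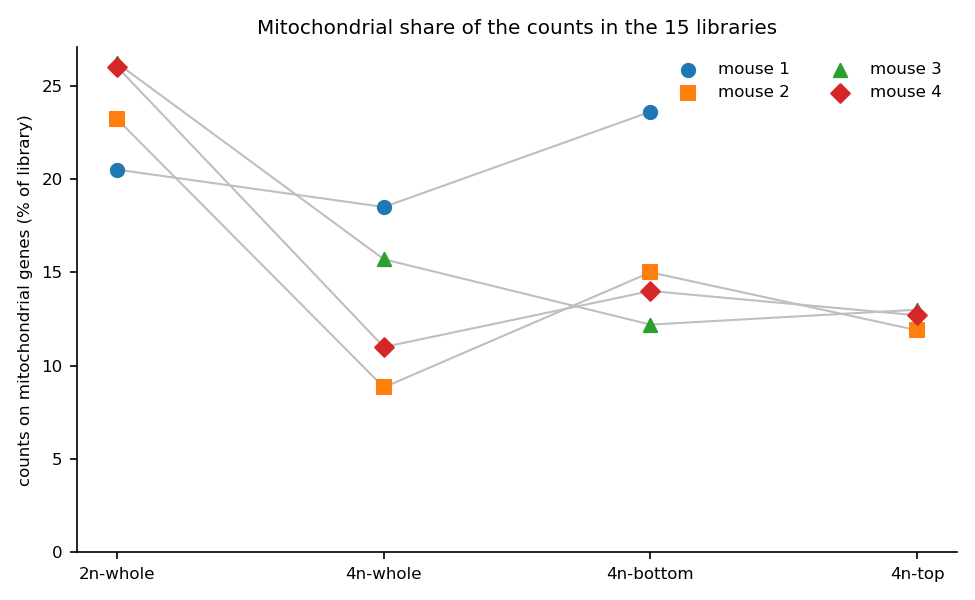
Share of all counts that fell on mitochondrial genes (% of the library) in the 15 libraries, 1 symbol for each mouse, with grey lines joining the libraries of a mouse. The 2n-whole libraries lie between 20.5 and 26.2% and the 4n-whole libraries between 8.84 and 18.5%, while 4n-bottom of mouse 1 lies at 23.6%.

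Several other genes with the smallest p were higher in 2n-whole in every mouse. Rtn4, a gene for the reticulon that shapes the endoplasmic reticulum, lies on chromosome 11 from 29642313 to 29694331. It was expressed at 62.7, 60.0, 50.8 and 84.6 CPM in 2n-whole and at 28.1, 23.5, 24.2 and 28 CPM in 4n-whole (log2 fold change -1.29, standard error 0.12, adjusted p = 1.4e-07). The 4n-whole libraries were close together and lay below all 2n-whole libraries. Ly6e, which encodes a surface protein with a lipid anchor, was expressed at 186, 207, 124 and 175 CPM in 2n-whole and at 96.5, 98.6, 57.9 and 64.7 CPM in 4n-whole. Abhd2, a lipase gene, was expressed at 239, 195, 269 and 320 CPM in 2n-whole and at 109, 108, 147 and 138 CPM in 4n-whole (log2 fold change -1.02). Aldh1b1, a mitochondrial aldehyde dehydrogenase gene, was expressed at 306, 296, 240 and 303 CPM in 2n-whole and at 108, 196, 109 and 117 CPM in 4n-whole (log2 fold change -1.16), where mouse 2 was the highest. None of these genes overlapped between the populations.

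Mfge8, the gene of a secreted glycoprotein that binds phosphatidylserine, was expressed at 11.1 to 15.8 CPM in 2n-whole and at 1.65, 3.41, 3.2 and 5.22 CPM in 4n-whole (log2 fold change -2.07, standard error 0.22). Fgfr1, a fibroblast growth factor receptor gene, was expressed at 24.8, 18.6, 18.3 and 13 CPM in 2n-whole and at 6.67, 9.02, 5.20 and 2.21 CPM in 4n-whole (log2 fold change -1.81). Cib3 was expressed at 6.61 to 14.6 CPM in 2n-whole and at 2.59 to 4.79 CPM in 4n-whole (log2 fold change -1.73). These 3 genes did not overlap, whereas Itih5, a gene for a hyaluronan-binding protein, overlapped between mice and fell within each (log2 fold change -1.05).

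Among genes of apolipoproteins and lipoprotein assembly, Apoa4 and Tm6sf2 (log2 fold change -0.61) fell. Of 25 coagulation genes F9 (-0.60) and F8 (-0.96) fell, and of 26 acute phase genes Orm1 (-0.52) and Lcn2 (-1.49). None of these 3 lists had a member that rose, and their medians lay between -0.21 and -0.05. Of their members 13.6%, 8.0% and 7.69% fell, against 1.73% of all genes. The coagulation and acute phase lists had 0 calls without the mouse in the model, without mouse 2 and without mouse 4. The coagulation list also had 0 with offsets for GC content and length. The apolipoprotein list had 1 call without the mouse in the model and 1 to 5 when a mouse was left out. F8 is known from endothelial cells too, and Lcn2 was also listed as a neutrophil marker. Lcn2 was lower in 4n-whole in 3 of 4 mice. Its call was lost without the mouse in the model, with the compared populations alone and without mouse 2, 3 or 4. Cp, the ceruloplasmin gene, did not pass the fold limit (log2 fold change -0.48, adjusted p = 0.0039). Kynu, the kynureninase gene, stood at a log2 fold change of -0.40 (adjusted p = 0.0094), under that limit too.

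The major urinary proteins, pheromone carriers of a large gene cluster whose members share much sequence, moved both ways. Of 20 tested genes 4 rose and 3 fell (20.0 and 15.0%, against 1.74 and 1.73% of all genes). Mup20 was expressed at 1791, 2179, 1887 and 1923 CPM in 2n-whole and at 930, 1032, 1035 and 744 CPM in 4n-whole (log2 fold change -1.06, standard error 0.10), with the groups far apart. Mup21 was expressed at 213, 197, 197 and 65.7 CPM in 2n-whole and at 102, 82.8, 123 and 32.0 CPM in 4n-whole, with mouse 4 lowest in both (log2 fold change -1.0), and Mup3 fell by a log2 fold change of -0.57. Mup17 was expressed at 18, 11.3, 11.1 and 7.27 CPM in 2n-whole and at 88.0, 13.8, 26.7 and 36.0 CPM in 4n-whole (log2 fold change 1.5). Mup15 (1.04) and Mup7 (0.55) rose in 3 of 4 mice and were lower in 4n-whole in mouse 2, and neither was called without mouse 1, 3 or 4. Reads shared between these genes can move counts from one to another.

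Genes of other liver cells were low in both populations. Summed over 12 markers, endothelial genes reached 18.9 to 32.0 CPM of the library total in 2n-whole and 8.87 to 47.8 CPM in 4n-whole. Of the 12, 1 fell, Ptprb (log2 fold change -1.03), which is 8.33%, against 1.73% of all genes. Kupffer cell markers summed to 1.14 to 9.16 CPM in 2n-whole and 1.53 to 4.08 CPM in 4n-whole, and stellate cell markers to 3.82 to 6.35 and 3.11 to 4.31 CPM, with 0 calls among 9 and 6 tested members. The Kupffer sum was higher in 2n-whole in 3 of 4 mice, and 7 of the 9 log2 fold changes were negative (median -1.75). The call of 1 Kupffer marker appeared with no filter, with ComBat-seq then DESeq2, without mouse 1 and with mitochondrial genes left out. Vsig4, a Kupffer cell receptor gene, had no count in any 4n-whole library and 0, 0.664, 0.904 and 0.862 CPM in 2n-whole (adjusted p = 0.051). The stellate cell collagen gene Col1a1 was at most 0.345 CPM in the 8 libraries compared. Of lymphocyte markers 1 passed the filter, Ighm, with no call (log2 fold change -0.06), and of erythroid and platelet markers 2 passed with no call, Itga2b having the smaller p (log2 fold change 0.72, adjusted p = 0.38). Lcn2 was the only neutrophil marker that passed.

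Markers of bile duct cells were lower in 4n-whole. All 8 tested members had a negative log2 fold change and 3 fell (37.5%, against 1.73% of all genes). The sum over the list was 67.3, 60.8, 52.4 and 55.0 CPM in 2n-whole and 44.2, 59.3, 39.7 and 31.8 CPM in 4n-whole. Spp1, the osteopontin gene, was expressed at 8.60, 8.12, 8.35 and 13.4 CPM in 2n-whole and at 1.44, 1.2, 1.28 and 1.49 CPM in 4n-whole, far apart in each mouse (log2 fold change -2.81, standard error 0.38). Sox9, a transcription factor gene of bile ducts and of some periportal hepatocytes, was expressed at 36.5, 37.0, 25.4 and 24.2 CPM in 2n-whole and at 14.3 to 30 CPM in 4n-whole (log2 fold change -0.62). Bicc1 was expressed at 1.04 to 3.62 CPM in 2n-whole and at 0.0632 to 0.321 CPM in 4n-whole, near the level of 3 counts. Sox4, a progenitor marker, had no count in any 4n-whole library and 1.21, 0, 0.556 and 1.44 CPM in 2n-whole (adjusted p = 0.040). The call was lost without the block, with DESeq2 and the block, and without mouse 3 or mouse 4, and the gene did not pass the filter without mouse 1 or with the compared populations alone. The part of residual bile duct cells in the fall of these genes was not tested.

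Matrix and adhesion genes had mostly negative log2 fold changes, 35 of 41, with a median of -0.93. But 3 were called as lower and 2 as higher (7.32 and 4.88%, against 1.73 and 1.74% of all genes). Markers of other cells moved with them, with medians of -0.94 for stellate, -0.74 for endothelial, -1.75 for Kupffer and -2.82 for bile duct cells, and their part in the result was not tested. Nid1, a basement membrane gene, was expressed at 7.32, 6.28, 8.83 and 12.0 CPM in 2n-whole and at 1.13, 1.64, 3.28 and 1.93 CPM in 4n-whole (log2 fold change -2.18). Adamts1 (log2 fold change -1.24), a matrix protease gene, and Itga6 (-0.95), an integrin gene, fell as well, without overlap. Col27a1 (0.78) and Col5a3 (0.54, in 3 of 4 mice) rose, and both were highest in the 4n-whole library of mouse 2. The junction gene Cldn2, which encodes a pore-forming claudin, rose from 3.76 to 13.3 CPM in 2n-whole to 13.3 to 34.7 CPM in 4n-whole (log2 fold change 1.66), while Ceacam1 fell (-0.53). Of 25 tested junction and cadherin genes 1 rose and 2 fell (4.0 and 8.0%, against 1.74 and 1.73% of all genes).

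Genes tied to ploidy control and to the cell cycle were examined next. Of 24 genes of the PIDDosome, p53 and E2F, which sense extra centrosomes and steer cytokinesis, E2f8 and Bbc3 rose (8.33%, against 1.74% of all genes) and none fell. E2f8, a repressor known to promote polyploidy in liver, was expressed at 2.22, 1.03, 2.64 and 2.82 CPM in 2n-whole and at 6.77, 4.37, 2.50 and 10.1 CPM in 4n-whole (log2 fold change 1.30, adjusted p = 0.014). It was higher in 3 of 4 mice, and the call was lost without mouse 1 and without mouse 4. The list as a whole had 0 calls without the mouse in the model, with the compared populations alone and without mouse 4. It had 1 call without mouse 1 and 1 without mouse 2. Cdkn1a, the p53 target p21, stood at a log2 fold change of 0.18 (adjusted p = 0.78). Among genes of DNA replication Pola1 fell (log2 fold change -0.64), and of 24 genes of mitosis none was called, Cenpa having the smallest p (log2 fold change 0.78, adjusted p = 0.18). None of 21 Hippo pathway genes was called, with Amotl2 at 0.36 (adjusted p = 0.060), nor any of 30 clustered histone genes, with H1f4 at 0.46 (adjusted p = 0.014, under the fold limit).

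The lists of protein synthesis and degradation genes had medians close to that of all genes. None of 80 cytosolic ribosomal protein genes, 36 genes of ribosome biogenesis and 34 proteasome subunits was called. Their median log2 fold changes were 0.10, 0.09 and 0.01. The ribosomal protein genes leaned to 4n-whole by small steps, 52 of 80 having a positive log2 fold change. In all 4 mice 17 were higher in 4n-whole and 1 was lower (11.7 and 12.6% of all genes). With no fold limit 8 were called as higher in 4n-whole and 0 as lower, against 513 and 444 of all genes. Rps19 had the smallest p of the first list (log2 fold change 0.48, adjusted p = 0.0055), Taf1d of the second (-0.38, adjusted p = 0.081) and Psmd4 of the third (0.37, adjusted p = 0.045). None of 14 genes of the epidermal growth factor receptor family was called, with Errfi1 at -0.27 (adjusted p = 0.057). Of 19 clock genes 1, Rora, fell (log2 fold change -0.56), which is 5.26%, against 1.73% of all genes.

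Of 38 genes of the interferon response and of MHC class I, 4 fell and 1 rose. These are 10.5 and 2.63%, against 1.73 and 1.74% of all genes. B2m, the shared light chain of MHC class I, was expressed at 841, 836, 685 and 864 CPM in 2n-whole and at 610, 317, 536 and 346 CPM in 4n-whole (log2 fold change -0.87, standard error 0.14), again lowest in mice 2 and 4. Ifitm3 (-0.54) fell and Bst2 (0.52) rose. Of 25 genes induced by tissue dissociation, Gadd45g rose (log2 fold change 0.68) and Klf6 fell (-0.68). These are 4.0% in each direction, against 1.74 and 1.73% of all genes. Both calls were lost without the mouse in the model, without mouse 4 and with the compared populations alone. The call of Gadd45g was also lost without mouse 2 and with offsets for GC content and length. Of 26 heat shock and stress genes Atf4 (0.54) and Hspa1b (0.86), which has a near-identical copy, rose (7.69%, against 1.74% of all genes). The heme enzymes Hmox1 (0.74) and Blvrb (0.55) rose, of 14 genes (14.3%, against 1.74% of all genes).

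Of 10 tested transcripts known to stay in the nucleus, 4 rose in 4n-whole (40%, against 1.74% of all genes), none fell and 6 were not called, with log2 fold changes from -0.55 to 1.33 and a median of 0.48. Without the mouse in the model 0 were called. Nlrp6, an innate immune sensor gene, was expressed at 118, 127, 125 and 112 CPM in 2n-whole and at 168, 217, 149 and 173 CPM in 4n-whole (log2 fold change 0.54). Gcgr, the glucagon receptor gene, was expressed at 120, 123, 135 and 121 CPM in 2n-whole and at 151, 246, 143 and 194 CPM in 4n-whole (log2 fold change 0.54), and Mlxipl belongs to this list too. Malat1, a noncoding RNA of nuclear speckles, passed the adjusted p but not the fold limit (log2 fold change 0.42, adjusted p = 0.015), and Neat1 stood at a log2 fold change of 0.36 (adjusted p = 0.29). The highest 4n-whole values of Nlrp6, Gcgr, Mlxipl and Malat1 were those of mouse 2, whose 4n-whole library had the lowest mitochondrial share. Without mouse 2 the count of calls was 1 of 10, and the part of that library's RNA composition was not tested.

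The 4n populations gated by height share the 2n-whole libraries with 4n-whole as reference, so the values are given side by side only. The same test called 0.463% of genes for 4n-bottom and 0.961% for 4n-top against 2n-whole. For the 12 genes of smallest p that rose, log2 fold changes were 0.81 to 2.59 in 4n-whole, 0.45 to 1.70 in 4n-bottom and 0.53 to 2.22 in 4n-top. For the 12 that fell they were -2.07 to -1.0, -1.59 to -0.48 and -2.21 to -0.76. Glul had 1.30 in 4n-whole, 1.43 in 4n-bottom and 0.53 in 4n-top, and Csad 1.2, 0.45 and 1.17. Tested directly against the mean of 4n-top and 4n-bottom, 4n-whole gave 0 called genes (0.0%) in edgeR, with 1042 genes (5.96%) at an unadjusted p under 0.05. DESeq2 with the mouse in the model called 30.

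**Figure D5:**
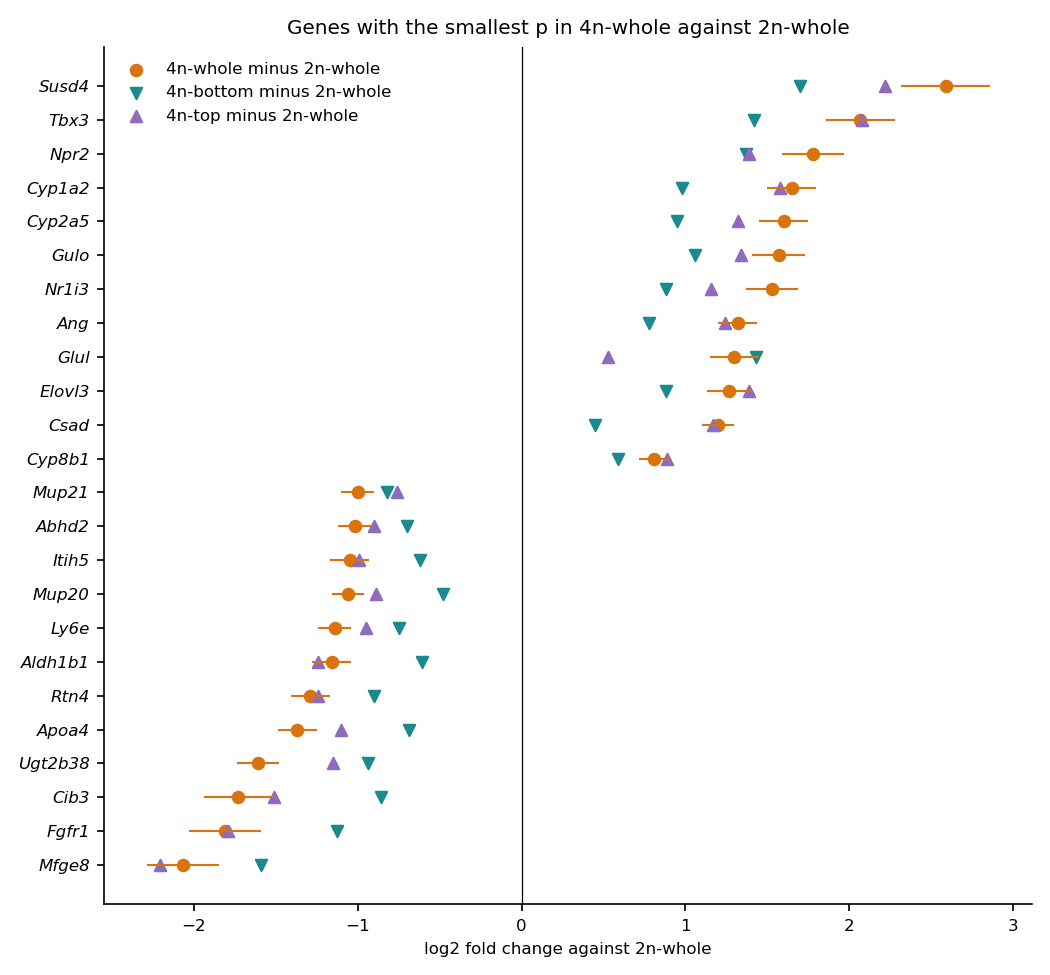
Log2 fold change against 2n-whole of the 24 genes with the smallest p, in 4n-whole (circles, bars are standard errors), 4n-bottom (triangles down) and 4n-top (triangles up). Each of the 24 genes lies on the same side of 0 in the 3 populations, which share the 2n-whole libraries.

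The DEGs also differed in features that the test did not use. GC content of the transcript had a median of 52.7% in the DEGs higher in 4n-whole, 44.3% in those higher in 2n-whole and 48.6% in all tested genes. The median transcript length was 3280, 4220 and 3548 bases. Noncoding genes of the lncRNA class made up 13.4% of the first group, 3.97% of the second and 14.7% of all genes. With offsets for GC content and length in the model, chosen after seeing the data, 518 genes were called and 395 of the 607 kept their call and direction. Under these offsets 20 pericentral, 10 periportal and 12 mitochondrial protein genes were called, and the calls of Otc, F9, Slc2a2, Gcgr and Nlrp6 were lost.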

How the data were processed

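RNA from sorted hepatocytes was made into libraries with a stranded kit. Per the labels and methods, STAR 2.7.11a (GRCm39) aligned the reads and featureCounts of Subread counted them, and the study treated mice as the batch. The values the authors deposited are raw counts per gene symbol. The annotation, the strand setting and the handling of read pairs and multi-mapping reads are not given in the sources used here. Of the 132 named genes, 34 overlap another annotated gene on the same strand and 81 on any strand (GENCODE M39, GRCm39).

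Genes were tested with edgeR 4.0.16 in R 4.3.3 (TMM, default filter, count of 10 and total of 15) in all 15 libraries, with population and mouse as terms, with Benjamini-Hochberg adjustment over 17488 genes. Standard errors were derived from the F statistic. The pairing comes from the subject number in the labels. Residual expression in the paired libraries of mice 1 to 4 correlated across genes with 0.158, 0.0845, 0.166 and 0.117. The fit was tested on simulated data.

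The members and gene lists were chosen with earlier results of these data known. Lists were described by counts and medians with no set test. Named genes were, in each direction, the 12 calls of smallest p that agreed in all mice, the 5 of highest mean CPM and the 3 of largest log2 fold change at a mean of at least 10 CPM, then up to 3 calls in each direction of each of 56 lists (or the gene of smallest p where none was called) and landmarks whatever they did. Alternatives were no replicate block, DESeq2 1.42.0, ComBat-seq (sva 3.50.0) then DESeq2, DESeq2 size factors, no filter, no fold limit, the compared populations only and each mouse left out. Added after seeing the data were mitochondrial genes left out, and GC content and length offsets. Promoters and their coordinates are from RefSeq on GRCm38.p6. Results on some genes are not reported here.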

Additional observations from a re-analysis of the deposited data

Results flagged for a closer look

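Of 264 sets of 4 libraries (the 132 named genes in each population), 15 had a library far from the other 3, by the gap to its nearest neighbour relative to the whole range. About 1 in 20 such sets would be picked out by chance. Mouse 1 gave 4 of them. Csad in 2n-whole was 35.7 CPM in mouse 1 and 91.1 to 99.1 CPM in the others, and Csad in 4n-whole was 89.5 CPM in mouse 1 against 202 to 225 CPM. Ugt2b38 in 2n-whole was 91.2 CPM in mouse 1 against 34.0 to 42.8 CPM, and Mup15 in 2n-whole was 161 CPM in mouse 1 against 48.7 to 65.8 CPM.

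Mouse 4 gave 5. Mup21 in 2n-whole was 65.7 CPM in mouse 4 against 197 to 213 CPM, Spp1 in 2n-whole 13.4 CPM against 8.12 to 8.60 CPM, and Cp in 2n-whole 1315 CPM against 1202 to 1221 CPM. In 4n-whole of mouse 4, Bicc1 was 0.0632 CPM against 0.293 to 0.321 CPM and Pdk4 18 CPM against 12.5 to 13.2 CPM.

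Mouse 2 and mouse 3 gave 3 each. Aldh1b1 in 4n-whole of mouse 2 was 196 CPM against 108 to 117 CPM, Adamts1 in 2n-whole of mouse 2 was 18.5 CPM against 7.21 to 8.10 CPM, and Rora in 2n-whole of mouse 2 was 118 CPM against 142 to 146 CPM. In mouse 3, Aldh1b1 in 2n-whole was 240.0 CPM against 296 to 306 CPM, B2m in 2n-whole 685 CPM against 836 to 864 CPM, and Tm6sf2 in 4n-whole 16.2 CPM against 12.5 to 13 CPM.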

How the results depend on the processing

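The number of DEGs moved most with the replicate block. With the pairing by mouse 607 genes were called, and without the block 40, of which 19 were higher in 4n-whole and 21 in 2n-whole. With no fold limit there were 957, with 513 higher in 4n-whole. ComBat-seq then DESeq2, which tested genes without the filter, called 1160 (517 and 643). The compared populations alone, with fewer libraries and genes, gave 305 (135 and 170). DESeq2 with the block called 814 (359 and 455). Leaving out each mouse gave 244 to 1025 calls, 136 to 503 higher in 4n-whole and 108 to 522 higher in 2n-whole. For 4n-whole against the mean of 4n-top and 4n-bottom, the count of 0 became 11 with no filter, 30 with DESeq2 and the block, and 4 with ComBat-seq then DESeq2, and 0 to 14 when a mouse was left out. The causes of these moves were not tested. None of the 111 called genes named in the text reversed under any alternative. Signs turned for 3 genes without a call. Ighm had a log2 fold change of 0.32 without the block, 0.15 with the compared populations alone and -0.42 to 0.51 when a mouse was left out (0.51 without mouse 3), Asl had -0.04 with the GC and length offsets, and Cdkn1a had -0.15 to 0.40 when a mouse was left out, with -0.15 without mouse 3. With a mouse left out, 31 of the 111 calls were lost without mouse 2 and 37 without mouse 4, against 7 without mouse 1 and 6 without mouse 3. Depth limits the marker genes near 3 counts, such as Bicc1, Vsig4 and Sox4.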
